A study of Mus musculus with 6 samples.

Results

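Macrophages divide a shared pool of arginine and tryptophan among competing enzymes, and 6 genes of these pathways were followed here in F4/80high and F4/80low tumor-associated macrophages (TAMs). They were *Nos2*, the inducible nitric oxide (NO) synthase, *Ass1* and *Asl*, which rebuild arginine from citrulline, *Odc1*, which makes the first polyamine, *Gatm*, which opens creatine synthesis, and *Ido1*, which opens the kynurenine pathway. Each was taken as the row whose gene symbol equals the listed name, which gave 6 of the 23424 genes in the tables, 1 row for each symbol. All 6 passed the filter of at least 10 counts summed over the 6 libraries, *Ido1* through few counts found mostly in F4/80low TAMs.

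The data are bulk RNA-seq read counts of TAMs sorted on day 21 from intradermal tumors of YUMM1.7, a mouse melanoma cell line, in wild-type female C57Bl/6J mice that were 8 weeks old at tumor induction and received no treatment. Live, CD45+, lineage-negative, CD11b+ cells were split by the surface level of F4/80, a macrophage protein encoded by *Adgre1*, into F4/80high and F4/80low TAMs. There were 3 libraries of each subset, and libraries with the same replicate number came from pooled tumors of the same experiment. A p-value therefore rests on experiments with pooled tumors, not on single mice. The main fit takes out the level of each batch, defined below. In fits that pair libraries by replicate number, it measures how much the subset difference varied between experiments, not how much the levels did.

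NO synthase turns arginine into NO and citrulline, and the citrulline can be returned to arginine, while other enzymes draw on the same arginine for creatine and polyamines. Interferon-gamma with bacterial products is the known inducer of *Nos2* in macrophages, and interferon-gamma of *Ido1*. Depletion of tryptophan and the kynurenine that IDO1 produces are known to restrain T cells, and NO acts on tumor cells and T cells alike, which is why these enzymes are followed in tumor macrophages.

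F4/80high replicates 1, 2 and 3 held 30292061, 43604373 and 16045281 counts. The F4/80low libraries held 32967733, 32560608 and 16204810, in the same order. Replicate 3 of both subsets stood apart. It had the fewest counts, and *Lars2*, *Gm23935* and *Gm15564* together took 17.1% of them in the F4/80high and 16.1% in the F4/80low library, against 0.378% to 0.609% in the other 4 libraries. Replicates 1 and 2 were treated as batch 1 and replicate 3 as batch 2, as the study draws them. Levels are given as CPM, the usual read counts scaled to a common library size, here after TMM, a normalization that limits the weight of a few very abundant genes. The floor of 3 counts in a library corresponds to between 0.0583 and 0.0757 CPM on that scale in replicates 1 and 2, and to 0.324 and 0.342 CPM in F4/80high and F4/80low replicate 3.

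All 9 macrophage markers looked for, *Csf1r*, *Itgam*, *Cd68*, *Mertk* and *C1qa* among them, were detected, and *Lyz2*, the lysozyme gene of myeloid cells, stood at 2044 to 16130 CPM and was their most abundant gene in 5 of the 6 libraries, the other being F4/80high replicate 3, where *Ptprc* (CD45) stood at 2052 CPM. *Adgre1* stood at 273, 539 and 360.3 CPM in F4/80high replicates 1, 2 and 3 and at 243, 326 and 184 CPM in F4/80low replicates 1, 2 and 3. It was higher in F4/80high TAMs in 3 of 3 pairs, although the ranges of the subsets overlapped, with a log2 fold change of 0.67 ± 0.30 (SE) and an adjusted p of 0.664 by edgeR's quasi-likelihood test. The subset labels were therefore borne out in direction by the *Adgre1* RNA in every pair, but not past the threshold.

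No enzyme was called as a DEG in the fit with batch. *Ido1* passed the filter only through the F4/80low libraries, so it is described by its counts and left out of the counts of calls and directions, which cover the other 5. A DEG had to differ by more than 1 on the log2 scale in either direction, with an adjusted p (Benjamini-Hochberg) under 0.05, in edgeR's quasi-likelihood test with terms for batch and subset. That fit called 0 of the 5 and 0 of the 14645 protein-coding genes tested (0.0%), with a lowest adjusted p of 0.434. The unadjusted p was under 0.05 for 1113 of the genes tested (7.6%) and for 1 of the 5, *Gatm*. With the replicate number as a block, edgeR called 76 genes (0.519%) and again 0 of the 5. In that fit the unadjusted p was under 0.05 for 9.91% of all genes and for 1 of the 5, again *Gatm*. DESeq2 with batch called 148 genes (1.01%) and 0 of the 5, while DESeq2 with the block called 354 (2.42%) and 1 of the 5. This was *Gatm*, among the genes called higher in F4/80high TAMs (0.895% of all genes, beside 1.52% called lower). Without F4/80high replicate 1, edgeR with batch called 57 of 14406 genes (0.396%) and 0 of the 5.

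Of the 5 enzymes, 3 had a positive and 2 a negative log2 fold change (F4/80high over F4/80low), with a median of 0.217 beside 0.009 over all genes tested. The CPM of the subsets did not overlap for 1 of the 5, *Gatm*, against 5.2% of all genes (2.3% higher and 2.9% lower in F4/80high TAMs). That separation rested on TMM, since with library size alone it was seen in 0 of the 5 and in 3.7% of all genes. One direction in 3 of 3 pairs was seen in 1 of the 5, again *Gatm*, against 31.9% of all genes (16.0% upward and 15.9% downward).

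**Figure D1:**
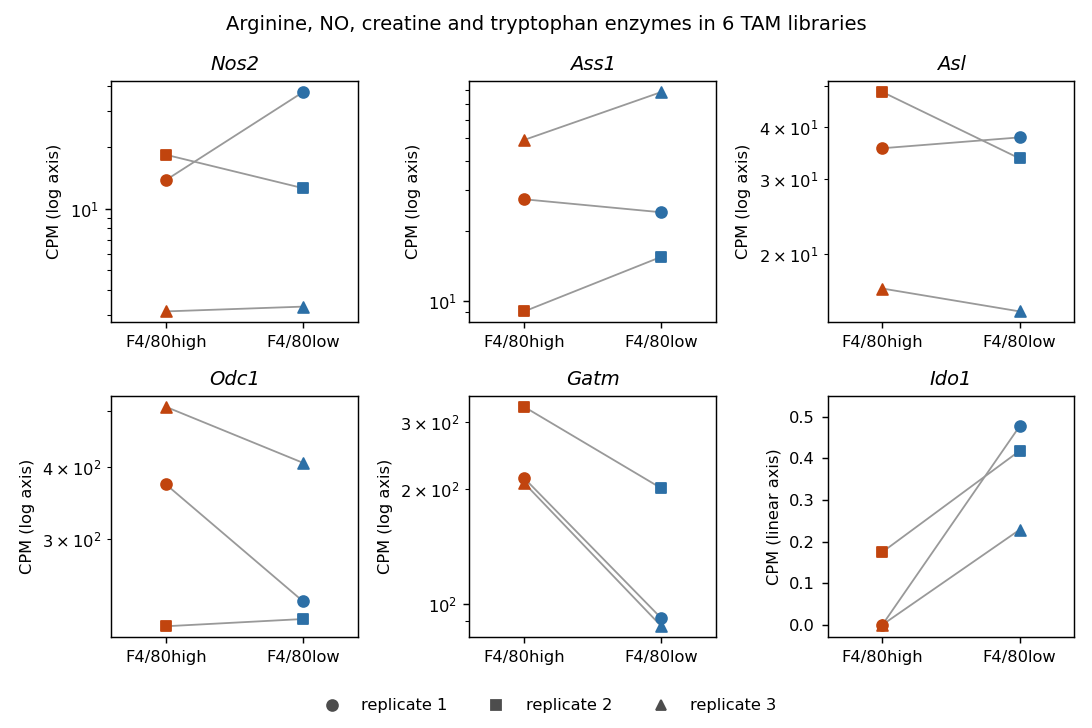
Level of each of the 6 enzymes in CPM (log axis, linear for *Ido1*) in the 3 F4/80high and 3 F4/80low libraries. Each symbol is a library, its shape is the replicate number, and a line joins the libraries of a replicate. *Gatm* lies between 207 and 328 CPM in F4/80high and between 87.3 and 201 CPM in F4/80low TAMs, and *Ido1* stays under 0.5 CPM throughout.

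*Nos2* (ENSMUSG00000020826, plus strand, GRCm38 chr11:78920787-78960254) encodes the NO synthase of activated macrophages, and its pairs did not share a direction. It stood at 13.8, 18.4 and 3.13 CPM in F4/80high and at 37.3, 12.6 and 3.31 CPM in F4/80low replicates 1, 2 and 3. F4/80low TAMs were higher 2.70 times in replicate 1, F4/80high TAMs 1.46 times in replicate 2, and replicate 3 held 29 counts in each subset. The log2 fold change was -0.48 ± 0.43 (SE) with an adjusted p of 0.801 by edgeR, and without F4/80low replicate 1 it was 0.18. No direction can therefore be given for *Nos2*.

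The enzymes that return citrulline to arginine and so can feed NO synthase did not share a pattern. *Ass1*, argininosuccinate synthase (ENSMUSG00000076441, plus strand, GRCm38 chr2:31470207-31520672), stood at 27.3, 9.05 and 49.1 CPM in F4/80high and at 24.1, 15.5 and 78.7 CPM in F4/80low replicates 1, 2 and 3. It was lower in F4/80high TAMs in replicates 2 and 3 and higher in replicate 1, with overlapping ranges and a log2 fold change of -0.31 ± 0.40 (SE, edgeR adjusted p = 0.886). Single libraries weighed on that value, which was -0.935 with F4/80high replicate 1 left out and -0.035 when instead replicate 2 of that subset was dropped. *Asl*, argininosuccinate lyase (ENSMUSG00000025533, minus strand, GRCm38 chr5:130011258-130029247), stood at 35.6, 48.3 and 16.5 CPM in F4/80high and at 37.7, 33.6 and 14.6 CPM in F4/80low replicates 1, 2 and 3. It differed by at most 1.44 times in a pair and had a log2 fold change of 0.22 ± 0.24 (SE, edgeR adjusted p = 0.861), between 0.039 and 0.333 when 1 library was left out. In replicate 3 *Asl* was at its lowest in both subsets.

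*Odc1* (ENSMUSG00000011179, plus strand, GRCm38 chr12:17544794-17551505) encodes ornithine decarboxylase, which turns ornithine, a product of arginine breakdown, into putrescine. Its levels were 373, 212 and 507 CPM in F4/80high and 234, 218 and 406 CPM in F4/80low replicates 1, 2 and 3. Among the 5 enzymes with counts in every library it varied least, with a highest level 2.39 times the lowest, and the subsets overlapped. F4/80high TAMs were higher in replicates 1 and 3, by 1.59 and 1.25 times, and were at 0.972 times the F4/80low level in replicate 2. The log2 fold change was 0.35 ± 0.26 (SE) and the edgeR adjusted p was 0.751, and leaving out 1 library gave 0.086 to 0.52. A small nucleolar RNA, *Gm22748*, lies within the gene on the same strand and held 12 to 99 counts of its own, against 3559 to 14766 for *Odc1*.

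*Gatm* (ENSMUSG00000027199, minus strand, GRCm38 chr2:122594467-122611303) encodes glycine amidinotransferase, which moves the amidino group of arginine to glycine as the first step of creatine synthesis. Its levels were 213, 328 and 207 CPM in F4/80high and 91.6, 201 and 87.3 CPM in F4/80low replicates 1, 2 and 3. The lowest F4/80high library lay just above the highest F4/80low library, so the subsets did not overlap after TMM. With library size alone they did, at 287, 397 and 134 CPM in F4/80high and 113, 258 and 52.5 CPM in F4/80low replicates 1, 2 and 3, each pair still being higher in F4/80high TAMs. Within the pairs F4/80high TAMs were higher 2.33, 1.64 and 2.38 times after TMM.

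*Gatm* averaged 249.8 ± 68.2 CPM over the F4/80high and 127 ± 64.4 CPM over the F4/80low libraries (SD, n = 3), a ratio of 1.97. edgeR with batch gave a log2 fold change of 1.01 ± 0.32 (SE) with an unadjusted p of 0.0123 and an adjusted p of 0.524, and its p ranked 337th of 14645. With the block the adjusted p was 0.0652 by edgeR and 0.000281 by DESeq2, while DESeq2 with batch gave 0.143. Leaving out any 1 library kept the log2 fold change between 0.77 and 1.43. Without either replicate 3 library it was 0.89, since the batch term then leaves the other one no weight in the subset difference. *Gatm* was thus the only one of the 5 with an unadjusted edgeR p under 0.05. After adjustment over all genes it missed the threshold in edgeR with batch or block, and DESeq2 with the block called it.

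*Ido1* (ENSMUSG00000031551, minus strand, GRCm38 chr8:24584136-24597009) encodes the interferon-inducible indoleamine dioxygenase and was barely detected. It had 0, 9 and 0 counts in F4/80high and 19, 17 and 2 counts in F4/80low replicates 1, 2 and 3. These are 0, 0.175 and 0 CPM against 0.477, 0.418 and 0.228 CPM, and F4/80low replicate 3 was under the floor of 3 counts. With so few counts, and a filter passed only through F4/80low TAMs, no fold change or test is given. In a bulk sample a few cells with much *Ido1* and many cells with little cannot be told apart, and for all 6 genes fewer cells of a type and less RNA per cell cannot be told apart.

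**Figure D2:**
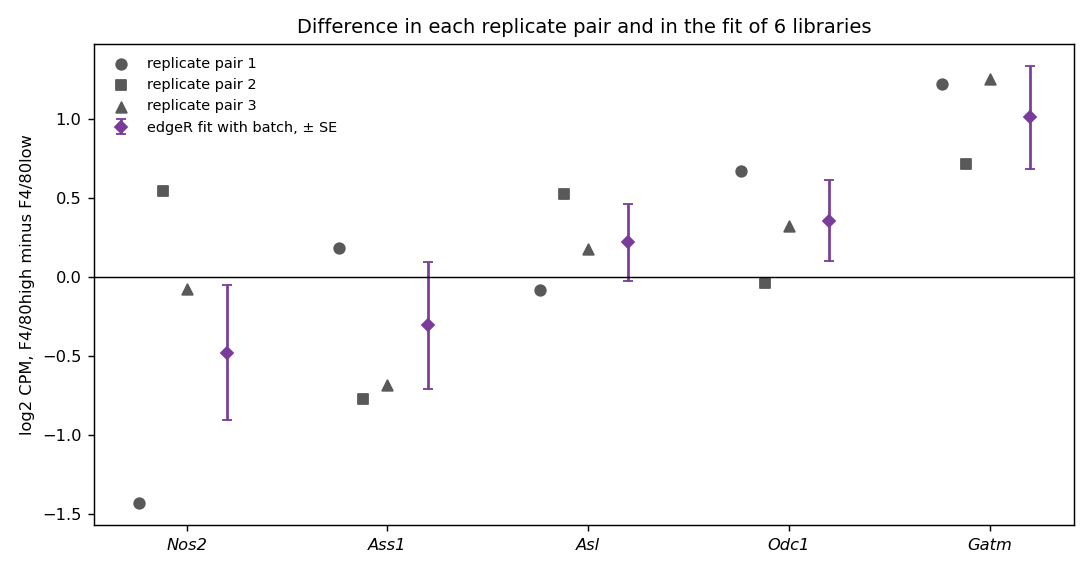
Difference between F4/80high and F4/80low TAMs in log2 CPM (prior count 2) for the 5 enzymes other than *Ido1*. Grey symbols are the 3 replicate pairs and the purple diamond is the edgeR log2 fold change with its SE. *Gatm* lies above 0 in all 3 pairs and *Nos2* spans -1.43 to 0.54.

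Of the 6 genes, 3 have a promoter in the RefSeq-based table used here, *Gatm*, *Ass1* and *Odc1*. *Gatm* is shown because it had the smallest p of the 5 enzymes, and *Ass1* and *Odc1* for comparison. The 250 bases before the RefSeq start are printed 5′ to 3′ on the strand of the gene, from GRCm38.p6, at chr2:122611278-122611527 for *Gatm*, chr2:31470020-31470269 for *Ass1* and chr12:17544623-17544872 for *Odc1*. Capitals mark matches on either strand to GGG followed by any 5 bases and CC (NF-kB type) and to ACGTG (the core of a hypoxia response element), and some matches overlap each other.
Gatm: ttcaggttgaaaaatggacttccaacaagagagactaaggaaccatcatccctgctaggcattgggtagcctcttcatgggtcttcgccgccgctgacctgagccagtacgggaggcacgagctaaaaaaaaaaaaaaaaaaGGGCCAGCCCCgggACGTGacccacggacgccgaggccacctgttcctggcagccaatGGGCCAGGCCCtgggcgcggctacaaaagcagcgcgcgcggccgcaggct
Ass1: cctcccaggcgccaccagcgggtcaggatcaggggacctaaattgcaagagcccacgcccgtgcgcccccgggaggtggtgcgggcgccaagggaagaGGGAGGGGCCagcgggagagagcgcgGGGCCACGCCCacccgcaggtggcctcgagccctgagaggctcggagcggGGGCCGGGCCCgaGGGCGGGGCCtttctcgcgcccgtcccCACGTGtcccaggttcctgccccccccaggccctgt
Odc1: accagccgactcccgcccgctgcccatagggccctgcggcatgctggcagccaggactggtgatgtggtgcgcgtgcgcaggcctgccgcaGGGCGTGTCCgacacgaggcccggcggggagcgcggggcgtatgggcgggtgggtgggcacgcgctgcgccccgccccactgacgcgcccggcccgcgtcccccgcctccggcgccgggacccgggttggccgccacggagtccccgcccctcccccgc
The NF-kB type letters matched 5 times in *Gatm*, 6 times in *Ass1* and 1 time in *Odc1*, counting both strands. They were found in 45.8% of the 32851 promoters of the same length, so a match is common. ACGTG matched 1 time in *Gatm*, 2 times in *Ass1* (the same CACGTG read on both strands) and 0 times in *Odc1*, and was found in 16.6% of promoters. TATAAA, TTCNNNGAA (GAS type) and GAAA, any 2 bases and GAAA (ISRE type) were not found in these 3 windows, and were found in 12.4%, 7.02% and 2.98% of all promoters. GC content was 59.2% in *Gatm*, 75.6% in *Ass1* and 80.0% in *Odc1*. These matches are descriptions of the letters and were not tested as binding sites.

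To compare levels between genes, CPM were divided by the gene length in kilobases. In F4/80high TAMs the order of mean levels per kb was *Odc1* at 143, *Gatm* at 83.2, *Ass1* at 11.8, *Asl* at 6.93, *Nos2* at 2.81 and *Ido1* at 0.0319 CPM per kb (n = 3). In F4/80low TAMs it was *Odc1* at 112, *Gatm* at 42.2, *Ass1* at 16.3, *Asl* at 5.93, *Nos2* at 4.23 and *Ido1* at 0.205 CPM per kb. The order of the means was thus the same in both subsets.

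Neighbours in that order were separated by their ranges over the 3 libraries in 2 places in each subset. In F4/80high TAMs *Gatm* lay above *Ass1* and *Nos2* above *Ido1* without overlap, and in F4/80low TAMs *Odc1* lay above *Gatm* and *Nos2* above *Ido1*. All other neighbours overlapped. In F4/80high TAMs *Odc1* ranged from 83.3 to 199 and *Gatm* from 69.1 to 109 CPM per kb.

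**Figure D3:**
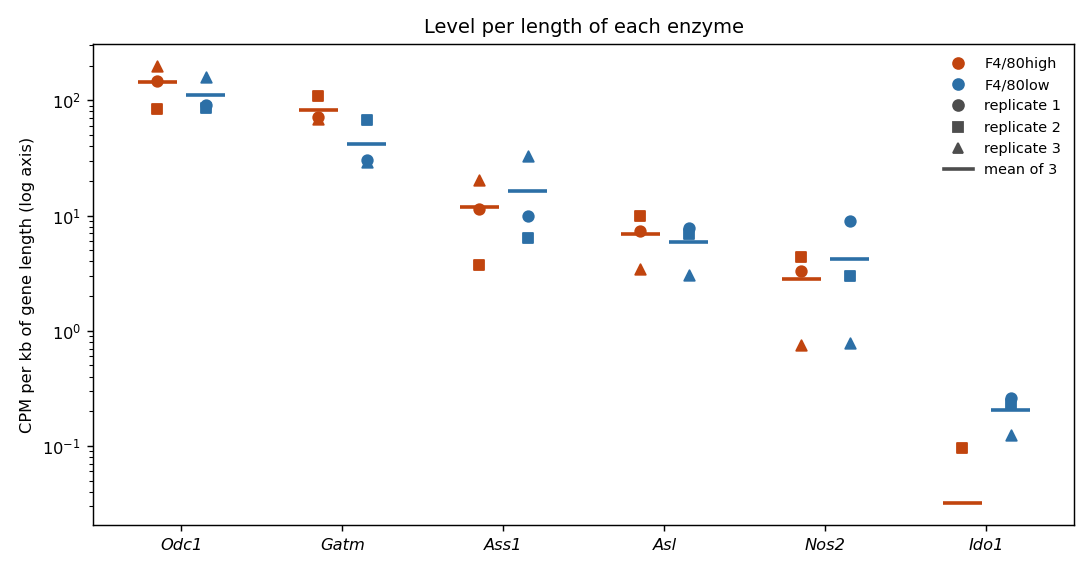
Level of each enzyme in CPM per kb of gene length (log axis) in each F4/80high and F4/80low library. *Odc1* and *Gatm* are the most abundant per length in the means of both subsets, and *Ido1* is the least. The 2 F4/80high libraries with 0 counts of *Ido1* cannot be shown on a log axis.

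The balance of citrulline recycling and NO synthesis was compared as the ratio of *Ass1* to *Nos2* per length within each library, which does not depend on scaling between libraries. *Ass1* stood at 3.44, 0.857 and 26.8 times *Nos2* in F4/80high and at 1.12, 2.14 and 40.6 times in F4/80low replicates 1, 2 and 3. The direction changed between pairs, and the difference of the log2 means was -0.10 with p = 1.0 in a two-sided exact permutation test. That test shuffles the libraries without regard to pair or batch, and with 3 against 3 it cannot give a p below 0.1. Replicate 3 had the highest ratio in both subsets.

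For *Nos2* and *Asl* the libraries of batch 2 lay below all 4 of batch 1, with batch 1 means 6.37 and 2.49 times the batch 2 means, and they did so with library size alone as well. For *Ass1* and *Odc1* they lay above all 4 after TMM, by 3.37 and 1.76 times, but overlapped them with library size alone. *Odc1* then stood at 328 and 244 CPM in F4/80high and F4/80low replicate 3, within or below the 256 to 500.7 CPM of batch 1. Over all 14645 genes tested, batch 2 lay wholly above batch 1 for 3620 and wholly below for 4688 after TMM, and for 1765 and 7566 with library size alone. Experiment, depth and the share of *Lars2*, *Gm23935* and *Gm15564* counts changed together between the batches and cannot be told apart.

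Among 16 other genes of polyamine synthesis, turnover and regulation, 6 lay above and 6 below in batch 2 after TMM, and 3 above and 10 below with library size alone. *Sat1*, the polyamine acetylating enzyme, stood at 10430 to 11270 CPM in batch 2 and at 629.6 to 840.0 CPM in batch 1. *Amd1*, which makes the aminopropyl donor for spermidine and spermine, stood at 483 to 520.1 against 33.5 to 45.4 CPM. Both lay above batch 1 under either scaling. Between the subsets their log2 fold changes were -0.09 ± 0.22 and 0.06 ± 0.22 (SE, edgeR adjusted p of 0.945 and 0.962).

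The genes around these enzymes were read from 7 lists of transporters, enzymes and cofactors of arginine, NO, proline, polyamine, creatine and tryptophan metabolism. Of 67 genes tested, 35 were higher and 32 lower in F4/80high TAMs by the sign of the log2 fold change, with a median of 0.042. The 32 include *Cyp1b1*, *Tdo2* and *Ckm*, which passed the filter only through the F4/80low libraries. Their counts summed to 0, 9 and 3 in F4/80high and to 28, 34 and 13 in F4/80low TAMs, so nothing is concluded from the tally. edgeR called 0 of them with either term, batch or block. In the fit with batch, 2 higher and 2 lower had an unadjusted p under 0.05, against 3.28% and 4.32% of all genes. With the block, *Slc7a2*, *Paox* and *Ckb* were higher and *Padi4*, *Kmo*, *Il4i1* and *Ahr* lower at an unadjusted p under 0.05, beside 9.91% of all genes in either direction. DESeq2 with batch called 2 of the 67, *Padi4* and *Ahr*, both lower in F4/80high TAMs, beside 1.01% of all genes called in either direction.

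Arginine uptake had 5 of 10 genes higher and 5 lower, a median log2 fold change of 0.103 and 1 with an unadjusted p under 0.05. Without *Slc25a2* and *Slc7a3*, which averaged under 1 in log2 CPM, 5 were higher and 3 lower, with a median of 0.289. The gene with that p was *Slc7a2*, a cationic amino acid transporter of activated macrophages. It stood at 6.39, 161 and 11.2 CPM in F4/80high and at 5.67, 27.7 and 3.08 CPM in F4/80low replicates 1, 2 and 3. It was highest in replicate 2 of both subsets, and edgeR gave a log2 fold change of 2.20 ± 0.97 (SE) with an adjusted p of 0.654. With the block the value was smaller, 1.53 ± 0.44 with an adjusted p of 0.234 by edgeR, and DESeq2 with the block called the gene, at 1.54 with an adjusted p of 0.00750. *Slc7a1*, the broadly expressed arginine transporter, had 0.33 ± 0.26 (adjusted p = 0.770 in the same edgeR fit).

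Of the genes of urea cycle and citrulline supply, 3 were tested and 3 had a negative log2 fold change, while *Cps1*, *Otc* and *Nags* had no row under these symbols. *Padi4*, which converts arginine residues of proteins to citrulline and is known from neutrophils, stood at 59.1, 38.2 and 26.6 CPM in F4/80high and at 133, 127 and 42.0 CPM in F4/80low replicates 1, 2 and 3. It was lower in F4/80high TAMs in 3 of 3 pairs, with overlapping ranges and a log2 fold change of -1.18 ± 0.27 (SE, adjusted p of 0.440 by edgeR and 0.0108 by DESeq2). The summed level of 10 neutrophil markers was lower in F4/80high TAMs as well, at 2147, 934 and 753 CPM against 4908, 3137 and 1535 CPM. Its part in the *Padi4* difference was not tested.

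Genes of NO synthesis, its cofactor and its inhibitors had 7 of 11 higher, 4 lower, a median log2 fold change of 0.079 and none with an unadjusted p under 0.05. Without *Ddah1*, *Gchfr* and *Nos3*, again under 1 in log2 CPM, 4 were higher and 4 lower, with a median of 0.009. Of the guanylate cyclase genes that sense NO, none was tested. *Gch1*, which makes the tetrahydrobiopterin cofactor that NO synthase needs, had the smallest p among the genes lower in F4/80high TAMs, with 54.1 ± 3.26 CPM against 78.1 ± 28.4 CPM (SD, n = 3) and a log2 fold change of -0.47 ± 0.25 (SE, edgeR adjusted p = 0.696). Ornithine and proline metabolism had 4 of 7 genes higher and a median of 0.051 (0.082 without *Pycr1*, at a similarly low level), again with none at an unadjusted p under 0.05. *Oat*, which sends ornithine toward proline and glutamate, had -0.15 ± 0.21 (SE, edgeR adjusted p = 0.892).

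The polyamine list had 10 of 16 genes higher and 6 lower, a median of 0.077 and none with an unadjusted p under 0.05 in the fit with batch. *Paox*, a polyamine oxidase, had a log2 fold change of 0.68 ± 0.34, and *Smox*, the spermine oxidase, -0.49 ± 0.27 (SE, edgeR adjusted p of 0.694 and 0.696). *Oaz2*, an antizyme that targets ornithine decarboxylase for destruction, had -0.38 ± 0.21 (SE, edgeR adjusted p = 0.696). The polyamine list thus gave no difference past the test in either direction.

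Beside *Gatm*, 3 of the 4 other creatine genes tested were higher in F4/80high TAMs, with a median log2 fold change of 0.507, and 1 had an unadjusted p under 0.05. *Ckb*, the brain-type creatine kinase, stood at 134, 243 and 46.5 CPM in F4/80high and at 101, 139 and 30.5 CPM in F4/80low replicates 1, 2 and 3. It was higher in 3 of 3 pairs with overlapping ranges and a log2 fold change of 0.64 ± 0.28 (SE, edgeR adjusted p = 0.647). *Slc6a8*, the creatine transporter, had 0.73 ± 0.44 and *Gamt*, which completes creatine synthesis, 0.38 ± 0.44 (SE, edgeR adjusted p of 0.712 and 0.867). *Ckm*, the muscle creatine kinase and the only one lower, held 16 counts in all, 12 of them in F4/80low replicate 1.

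The tryptophan list had 6 of 16 genes higher and 10 lower in F4/80high TAMs, with a median of -0.24. Of these, *Cyp1b1* and *Tdo2* held few counts, *Cyp1b1* a sum of 0 over the F4/80high and 28 over the F4/80low libraries and *Tdo2* a sum of 9 against 34, and without them 6 were higher and 8 lower, with a median of -0.058. Leaving out instead all 5 genes that averaged under 1 in log2 CPM, *Cyp1b1* and *Tdo2* among them, 3 were higher and 8 lower, with a median of -0.398. The size of the list's median thus depended on its genes of low level. *Ahr*, the aryl hydrocarbon receptor to which kynurenine binds, stood at 84.8, 62.7 and 79.6 CPM in F4/80high and at 192, 114 and 183 CPM in F4/80low replicates 1, 2 and 3. The subsets did not overlap after TMM but did with library size alone, and the log2 fold change was -1.10 ± 0.26 (SE) with an adjusted p of 0.440 by edgeR with batch, 0.0569 with the block and 0.0174 by DESeq2 with batch. *Kmo*, which hydroxylates kynurenine, averaged 14.0 ± 5.12 CPM over the F4/80high and 26.1 ± 17.7 CPM over the F4/80low libraries (SD, n = 3), with a log2 fold change of -0.84 ± 0.44 (SE, edgeR adjusted p = 0.696). *Cyp1b1*, a classical target of the receptor, had counts above 0 only in F4/80low replicate 1.

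Signals known to act on arginine and tryptophan metabolism in macrophages were read from 4 further lists. Of 18 inducers and regulators, 9 were higher and 9 lower, with a median log2 fold change of -0.054. *Cebpb*, a transcription factor of myeloid cells, had the smallest p among them. It stood at 841, 569 and 427 CPM in F4/80high and at 1474, 1133 and 717 CPM in F4/80low replicates 1, 2 and 3, lower in 3 of 3 pairs. The log2 fold change was -0.84 ± 0.24 (SE), with an adjusted p of 0.504 by edgeR and 0.0535 by DESeq2, both with batch. With the block the adjusted p was 0.083 by edgeR and 0.00212 by DESeq2. At -0.849 in that DESeq2 fit, the change was too small for a call.

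Hypoxia targets had 7 of 15 genes higher and 8 lower, a median of -0.012 (-0.105 without *Adm*, which averaged under 1 in log2 CPM), and 3 with an unadjusted p under 0.05, all lower in F4/80high TAMs, beside 4.32% of all genes in that direction. These were *Egln3*, an oxygen-sensing prolyl hydroxylase, *Vegfa*, the angiogenic growth factor, and *Slc16a3*, a lactate exporter, with log2 fold changes of -0.68 ± 0.22, -0.65 ± 0.22 and -0.78 ± 0.29 (SE, edgeR adjusted p of 0.524, 0.539 and 0.576). In batch 2, 11 of the 15 genes lay below batch 1 after TMM, beside 4688 of all 14645 genes, and 13 with library size alone, beside 7566.

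Of 12 interferon-gamma induced genes, 1 was higher and 11 lower, with a median of -0.32. None had an unadjusted p under 0.05 in the fit with batch. With the block, edgeR gave *Gbp2*, *Ciita* and *Gbp5* an unadjusted p of 0.0181, 0.0258 and 0.0326, beside 9.91% of all genes under 0.05. In 3 of 3 pairs 4 of the 12 were lower, beside 15.9% of all genes. *Gbp2*, a guanylate-binding protein, had -0.61 ± 0.29 and *Cxcl9*, a T-cell-attracting chemokine and the one that was higher, 0.57 ± 0.37 (SE, edgeR adjusted p of 0.685 and 0.724). No gene of this list was called by edgeR or DESeq2 with batch.

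Of 12 IL-4 induced macrophage genes, 2 were higher and 10 lower, with a median of -0.806, beside 0.009 over all genes. Without *Ccl17*, which averaged under 1 in log2 CPM, 2 were higher and 9 lower, with a median of -0.692. Of the 12, edgeR called 0 with batch and 4 with the block (0.519% of all genes), and DESeq2 called 2 with batch (1.01%). *Mrc1*, the mannose receptor, stood at 276, 840.7 and 1313 CPM in F4/80high and at 73.5, 254 and 160 CPM in F4/80low replicates 1, 2 and 3, without overlap. *Chil3*, a chitinase-like protein, went the other way, at 489, 222 and 163 CPM in F4/80high and at 1454, 867 and 666 CPM in F4/80low replicates 1, 2 and 3, without overlap after TMM but not with library size alone.

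Their log2 fold changes were 2.19 ± 0.56 for *Mrc1* and -1.81 ± 0.34 for *Chil3* (SE), with adjusted p of 0.443 and 0.434 by edgeR with batch, 0.0272 and 0.0253 with the block, and 0.00683 and 0.000352 by DESeq2 with batch. *Tgm2*, a transglutaminase, had -0.997 ± 0.21 (SE, edgeR adjusted p = 0.440). The other genes called with the block were *Ccl22* and *Cd209a*, both lower in F4/80high TAMs. *Cd209a* is also one of the dendritic cell markers, whose sum was lower in F4/80high TAMs in 3 of 3 pairs, and their part in this list was not tested. *Mrc1* and *Chil3*, both often listed as alternative activation genes, thus had opposite directions in the same libraries.

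**Figure D4:**
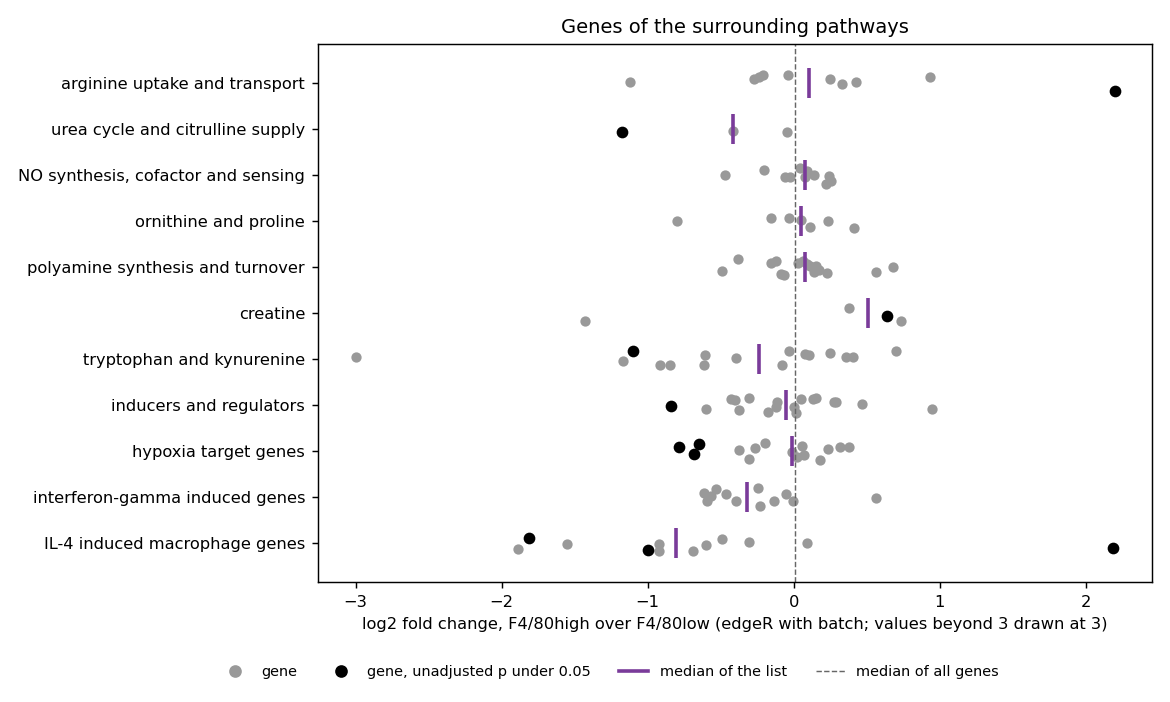
Log2 fold change (F4/80high over F4/80low, edgeR with batch) of the genes tested in 11 lists around the 6 enzymes. Grey points are genes, black points have an unadjusted p under 0.05, the purple bar is the list's median and the dashed line the median of all genes, 0.009. *Slc7a2* and *Mrc1* lie near 2.2 at the right, *Cyp1b1* is drawn at -3, and no gene was called after adjustment.

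Profiles over the 6 libraries were compared as the root mean square difference in log2 CPM after centring each gene, against 10986 other genes averaging at least 1 in log2 CPM. The nearest genes to *Gatm* were *Chd3os* at 0.083, *Fads1*, a fatty acid desaturase, at 0.164 and *Hebp1*, a heme-binding protein, at 0.166.

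For *Nos2* the nearest were *Tmem198b* at 0.275, *Il1rl2*, a receptor of the interleukin-1 family, at 0.310 and *Gm10382* at 0.315. *Ass1* was nearest to *Klhl12* at 0.157 and to the interferon-induced genes *Ifit3b* at 0.163 and *Ifit3* at 0.201. For *Asl* they were *Pdhx*, a pyruvate dehydrogenase component, at 0.040, *Pmpca*, a mitochondrial peptidase, at 0.080 and *Pgrmc2* at 0.084, and for *Odc1* they were *Iffo2* at 0.113, *Hnrnpul2* at 0.146 and *Taf1d* at 0.153. Among the enzymes themselves the closest pair was *Ass1* and *Odc1* at 0.658, followed by *Asl* and *Gatm* at 0.690, while *Nos2* and *Ass1* lay 2.15 apart. Genes at a distance under 0.5 numbered 3190 for *Asl*, 1892 for *Odc1*, 504 for *Gatm*, 471 for *Ass1* and 103 for *Nos2*. A small distance was thus common for *Asl* and *Odc1*. These values describe 6 libraries that share experiments and depth, and carry no test.

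Markers of other cell types differed in sign between the subsets. edgeR with batch called none of them, but it called 0 of the 14645 genes tested. Of all 14645 genes tested, 7435 were higher and 7210 lower in F4/80high TAMs by sign. The sort took CD45+, lineage-negative cells, a gate that would remove fibroblasts and those lymphocytes and neutrophils that its lineage antibodies cover. The study's panel held antibodies to B220, CD3e, NK1.1 and Ly6G, but which of them made up the lineage gate of this sort is not given in the sources used here. The summed level of 10 dendritic cell markers was 379, 106 and 125 CPM in F4/80high and 671, 212 and 191 CPM in F4/80low replicates 1, 2 and 3, with *Ccr7* the most abundant in replicates 1 and 2 and *Xcr1* in replicate 3. *Flt3* stood at 2.81 to 26.4 CPM, and *Clec9a* was at 0 in F4/80high replicate 2. Of the 10 markers, 8 were lower in F4/80high TAMs, the direction of *Ahr*. Neutrophil markers, with *Retnlg* at 217 to 1410 CPM, were lower in 10 of 10, and eosinophil markers, led by *Ccr3*, in 8 of 8, with sums of 187, 93.8 and 117 CPM against 390.0, 621 and 271 CPM. In the fit with batch, all these neutrophil markers but *Ly6g* and *Csf3r* had an unadjusted p under 0.05. So did all the eosinophil markers but *Epx* and *Ear1*, and of the dendritic cell markers only *Flt3*. The share of all genes lower at that p was 4.32%.

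The T and NK cell markers went the other way, with 7 of 7 tested higher in F4/80high TAMs by the sign of the log2 fold change, and sums of 1109, 337 and 193 CPM against 382, 505 and 102 CPM. The pairs did not all share that direction, since the sum was lower in F4/80high replicate 2. Of these markers only *Cd3e* and *Cd8a* had an unadjusted edgeR p under 0.05, beside 3.28% of all genes in that direction. Fibroblast markers, with *Col3a1* the most abundant in replicates 1 and 2 and *Col1a2* in replicate 3, were lower in 6 of 6, with sums of 1092, 438 and 1528 CPM in F4/80high and 1288, 1048 and 1891 CPM in F4/80low replicates 1, 2 and 3. The 4 melanoma markers tested were higher in F4/80high TAMs by sign, and their sum was higher in 3 of 3 pairs, at 20.1, 28.4 and 168 CPM against 15.6, 14.5 and 109 CPM. Most of that sum was *Mitf*, a transcription factor of melanocytes that macrophages also express, at 16.5, 21.6 and 167 CPM in the F4/80high libraries and at 13.3, 11.4 and 104 CPM in F4/80low replicates 1, 2 and 3, with a log2 fold change of 0.64, an unadjusted p of 0.0192 and an adjusted p of 0.554 by edgeR. *Pmel*, *Sox10* and *S100b* stood at 0.233 to 5.13 CPM and *Mlana* was at or under 3 counts in every library. *Dct*, *Tyrp1* and *Tyr* had no row under these symbols.

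Mast cell and basophil markers were lower in F4/80high TAMs in 7 of 7, with sums of 89.9, 5.85 and 96.7 CPM against 120.5, 26.0 and 401 CPM, and erythroid markers in 6 of 6, their sums being lower in 3 of 3 pairs. The most abundant of these over the libraries together were *Kit* and *Hbb-bs*. Endothelial markers were lower in 3 of 4 tested and B and plasma cell markers higher in 4 of 5. The part of these cells in the values of the 6 enzymes was not tested.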

How the data were processed

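RNA libraries of sorted F4/80high and F4/80low TAMs were sequenced by the authors, who deposited for each library a table of raw read counts per gene with gene length. The values are whole numbers with no normalization. Alignment used a workflow of the sequencing core, whose aligner, counting rule, strand and annotation are not given in the sources used here. Of 23424 gene IDs, 99.4% were found in GENCODE M21 (GRCm38), which gave biotypes, coordinates and overlaps of gene spans. No 2 libraries held identical values.

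The tools were edgeR 4.0.16 (glmQLFit and glmQLFTest, TMM), limma 3.58.1 and DESeq2 1.42.0 in R 4.3.3. Of 15813 protein-coding genes, the 14645 with at least 10 counts over the 6 libraries were fitted with terms for batch and subset, and p-values were Benjamini-Hochberg adjusted over all of them. Batch was taken from the study's drawing of the samples. For replicates 1, 2 and 3 the TMM factors of the F4/80high libraries were 1.34, 1.21 and 0.646, and those of the F4/80low libraries 1.23, 1.29 and 0.601. Log2 CPM used a prior count of 2, and for the ratio 0.5 was added to each count before dividing by length. The gene length in the tables was used for values per kb.

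The libraries come from independent experiments, so equal replicate numbers were taken as pairs. Within pairs 1, 2 and 3, the deviations of 10072 genes from their subset mean had correlations of 0.745, 0.729 and 0.907, and each library matched its own number best. The fits were also run on simulated data, and no result of that run is reported here.

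The enzymes, the gene lists and the tests were chosen with earlier results of these data known. Results of 2 further genes chosen by the same rule are not reported here. Named are the 6 enzymes, *Adgre1*, up to 3 genes of each list with the smallest p in each direction, and the 3 nearest profiles of each enzyme averaging at least 1 in log2 CPM. *Sat1*, *Amd1*, *Ccl22*, *Gbp5*, *Il4i1*, *Tdo2*, *Mitf*, *Lars2*, *Gm23935* and *Gm15564* were named after their values were seen. So were the genes of low level that were left out of a list. The cell type markers, too, were named after their values were seen, by their abundance or p or because they define a cell type. *Gm22748* is named because its span lies within *Odc1*. Alternatives were the replicate block, DESeq2 with batch or block, other scalings, filters and biotypes, no batch term, and leaving out each library or replicate 3.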

Additional observations from a re-analysis of the deposited data

How the results depend on the processing

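Across the alternatives, 88 fold changes of the 5 enzymes other than *Ido1* kept their direction and side of the threshold, 1 reversed and 1 passed the threshold. With the replicate block, which pairs libraries of one experiment, edgeR called 76 genes in place of 0, 0 of these 5 enzymes and 4 genes of the lists. DESeq2 with batch called 148 genes and 4 of the lists, and DESeq2 with the block called 354 genes, 1 of the 5 (*Gatm*) and 7 of the lists. Leaving out 1 library, edgeR called 0 to 57 genes and 0 to 2 of the lists, the most without F4/80high replicate 1. In these fits, leaving out either replicate 3 library removed that whole pair from the subset difference, since batch 2 holds only replicate 3. The block changed no other call.

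Leaving out 1 library, the log2 fold change of *Nos2* ranged from -0.806 to 0.185 (without F4/80low replicate 1). In the same way the difference of the log2 *Ass1* to *Nos2* ratio ranged from -1.423 to 1.469, with 0.057 when F4/80high replicate 1 and 1.059 when F4/80high replicate 2 was left out. The causes were not tested. With library size alone in place of TMM, the subsets of *Gatm* and the batches of *Ass1* and *Odc1* overlapped, a comparison added after seeing the data, as were the counts without genes of low level. The median of all genes moved to at most 0.055, with library size alone.

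Counts were few for *Ido1*, which was not tested under 2 of the filters, and for *Nos2* in replicate 3, with 29 counts in each library. The cause of these low counts was not tested. With 3 libraries a subset, an exact test of the ratio cannot reach 0.05. The batches differ in depth and in the share of 3 abundant genes, and cannot be told apart from the experiment.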
